A study of Mus musculus with 3 samples.

Results

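The genes described here encode the constitutive proteasome, the protease complex that degrades ubiquitin-tagged proteins. They were chosen by name: every non-control probe whose gene symbol begins with Psma, Psmb, Psmc, Psmd or Psme and a number, other than the immunoproteasome genes Psmb8, Psmb9 and Psmb10. This gave 65 of 41174 probes and 41 of 27724 named genes or transcripts. Of the 41 genes, 16 encode subunits of the 20S core, 20 belong to the 19S cap and 4 are activators. The remaining gene, Psmc3ip, fits the name only: it encodes a PSMC3-interacting protein known from meiotic recombination, and is no subunit. It is counted among the members, left out of the subcomplexes and described on its own below.

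RNA came from C3H10T1/2, a mouse embryonic fibroblast-like cell line used in transformation assays, under 3 conditions: untreated, exposed to 0.01 uM hexavalent chromium, Cr(VI), and exposed to 1 uM Cr(VI). Each condition had 3 flasks, and exposure began 24 h after 2000 cells were seeded in a flask and lasted 48 h. The cells were then kept in fresh medium to day 15, so the RNA was taken days after the exposure had ended. Each condition was measured on 1 array, and the labels do not say whether the flasks were pooled. There are therefore no replicates, conditions could not be tested against each other, and a difference below is always between single arrays.

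The proteasome is built from a barrel-shaped core and regulatory particles that dock on its ends. Rings of alpha subunits gate the barrel, and rings of beta subunits hold the catalytic sites. The 19S cap has a base, in which a ring of ATPases unfolds the substrate and threads it into the core, and a lid that removes the ubiquitin chain. Other activators, the PA28 and PA200 proteins, open the gate without using ATP. Cells are known to make the subunits in matched amounts, and to raise their genes together through the transcription factor NRF1, encoded by Nfe2l1, when proteasome activity is short.

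Each probe is a 60-base oligonucleotide. Several genes carry more than 1 probe, and the start of a probe is shown, 5′ to 3′, for 4 genes. The Psmc5 probes gave like differences. At 1 uM the differences of the Psmd4 and of the Psmc3ip probes lay at least 1.5-fold apart. Those of the Psmc6 probes had the same direction and lay 0.47 apart in log2, less than the 0.55 of Psmd12, which is not shown. Both probes of Psmc5, the ATPase gene with the largest difference, lie on chromosome 11 of build mm9, at chr11:106124192-106124376 and chr11:106122563-106122762 on the plus strand. Each spans more than its own 60 bases of genome, so each crosses an exon junction. The other probe pairs are those of Psmc6 (chromosome 14, plus strand), Psmd4 (chromosome 3, minus strand) and Psmc3ip (chromosome 11, minus strand). In Psmc6 and Psmd4 the first probe is annotated to the RefSeq transcript and the second to another deposited cDNA.
Psmc5, brightest probe: gctaaggtcatgcaaaaggatagtgagaaa
Psmc5, other probe: gagggccatggataagaaaaaagtattggt
Psmc6, RefSeq transcript: gcaggtatgtttgcaattcgtgccgatcat
Psmc6, cDNA BC043044: ctattatttcttaggttcaccagtggattc
Psmd4, RefSeq transcript: gagtttggagtagatcccagtgctgatcct
Psmd4, cDNA AB029144: aggtgtttttatttccgttgtcctggaatt
Psmc3ip, brightest probe: gagcaagaagcagttctttgaggaagttgg
Psmc3ip, other probe: aaagagattcaggagttaaagaaggagtgt

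Values are log2 signals relative to the 75th percentile of all probes on the same array, so that a value of 1 is a signal 2-fold above that percentile. A gene is represented by its brightest probe, and levels are compared for 1 probe across arrays, never between probes. The standard errors (SE) come from the scanner software's error model; they are technical, near 0.20 for most members, and leave out differences between cultures. Of all probes, the scanner software called 41.8% (untreated), 36.4% (0.01 uM) and 41.5% (1 uM) well above background. The fibroblast marker genes were well above background on every array (9 of 9), the epithelial markers on none (0 of 5), and of the leukocyte markers only Cd68 on every array. At 1 uM, 5 of the 7 fibroblast markers that could be compared were at least 1.5-fold lower than in the untreated cells (median -0.81), against 13.6% of all genes. Well above background on the 1 uM array alone were 1 of 4 endothelial markers, Cdh5, and the leukocyte marker Aif1, while Pecam1, Tek and Kdr were not on any array. In bulk RNA, fewer cells of a type and less RNA per cell cannot be told apart, and the part of these shifts in the values below was not tested.

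Of the 41 genes, 39 were well above background on all 3 arrays. Psma8 and Psmb11 were not well above background on any. Psma8 encodes the testis form of an alpha subunit and Psmb11 the thymus form of a catalytic beta subunit. Psma8 gave -4.94, -4.11 and -4.83 (untreated, 0.01 uM and 1 uM, the order used throughout) and Psmb11 gave -5.23, -4.30 and -5.04. These signals lie at the dim end of each array, where the 0.01 uM array has the higher floor, so no difference is given. Psmb11 lies 14.5 kb from the Psmb5 probe on chromosome 14, at chr14:55247705-55247764 against chr14:55233161-55233220, and Psmb5, the constitutive form of the same subunit, was well above background on every array. Among the 65 probes, 55 were well above background on all arrays and 10 on none.

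The first comparison was 1 uM Cr(VI) against untreated cells. With scaling to the 75th percentile, the constitutive proteasome genes stood close to their untreated level as a group. The median difference over the 39 genes was 0.02, against -0.03 over all 12277 genes compared, with 20 of the 39 above 0. Without Psmc3ip the median was 0.01, with 19 of 38 above 0. Across all genes, 47.5% were above 0. Quantile normalization put 34 of 39 members above 0, with a median of 0.20 against 0.03 over all genes, and loess scaling put 33 of 39 above 0, with a median of 0.16 against 0.0004. Scaling on 5 unsaturated spike-in controls raised every difference at 1 uM alike, to a median of 0.70 with all 39 members above 0 and of 0.65 over all genes, so a direction given here is relative to the 75th percentile and would turn with that scaling for every member that reads lower. At least 1.5-fold higher were 2 members, Psmc5 and Psmc3ip, where 14.1% of all genes were, and 0 members were at least 1.5-fold lower, where 13.6% of all genes were. Past a log2 difference of 0.32, a smaller threshold, 6 members were higher (25.3% of all genes) and 2 were lower (26.9% of all genes). The 6 were Psmc5, Psmc3ip, Psmd5, Psmb3, Psmc4 and Psme4, and the 2 were Psmd9 and Psmd10. At least 2-fold higher was 1 member, Psmc3ip, against 5.75% of all genes, and 0 members were 2-fold lower, against 4.93%.

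The second comparison was 0.01 uM Cr(VI) against untreated cells. All but 1 of the members (38 of 39) read slightly higher at 0.01 uM, with a median of 0.13, while 60.5% of all 11738 genes compared were above 0, with a median of 0.04. This small common offset depended on the scaling: quantile normalization and loess scaling each left 25 of 39 above 0, with medians of 0.03. Scaling to the 75th percentile or the median of detected probes left 32 and 37 above 0, with medians of 0.07 and 0.11. Normexp background correction left 30 above 0 (median 0.06), and the spike-in controls 39 (median 0.43). At 1.5-fold, 1 member was higher, Psmc3ip, where 2.74% of all genes were, and 0 were lower, where 1.15% were. The exception to the common direction was Psmd1, at -0.05. Past 0.32 the higher genes were Psmc3ip and Psmd13, 2 of 39, against 8.66% of all genes, and 0 members were lower by as much, against 4.49%. At 2-fold 0 members were higher or lower, against 0.273% and 0.17% of all genes.

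The third comparison set the 1 uM array against the 0.01 uM array. The median of the members was -0.13, with 13 of 39 above 0, against -0.05 and 46.2% over all 11903 genes compared. The direction of that median was set by the scaling: quantile normalization gave 0.13 and loess scaling 0.12, each with 30 of 39 above 0. Psmc5 was the 1 member at least 1.5-fold higher (12.5% of all genes), and 0 members were at least 1.5-fold lower (17.9% of all genes). Past 0.32, 4 members were higher (Psmc5, Psmc3ip, Psmd5 and Psme4) and 4 lower (Psmd9, Psmb1, Psmd8 and Psmd10), where 22.5% and 33.5% of all genes were, and at 2-fold 0 were higher or lower, where 5.27% and 6.52% were. Since each array enters 2 of the 3 comparisons, their values are not independent of one another.

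**Figure D1:**
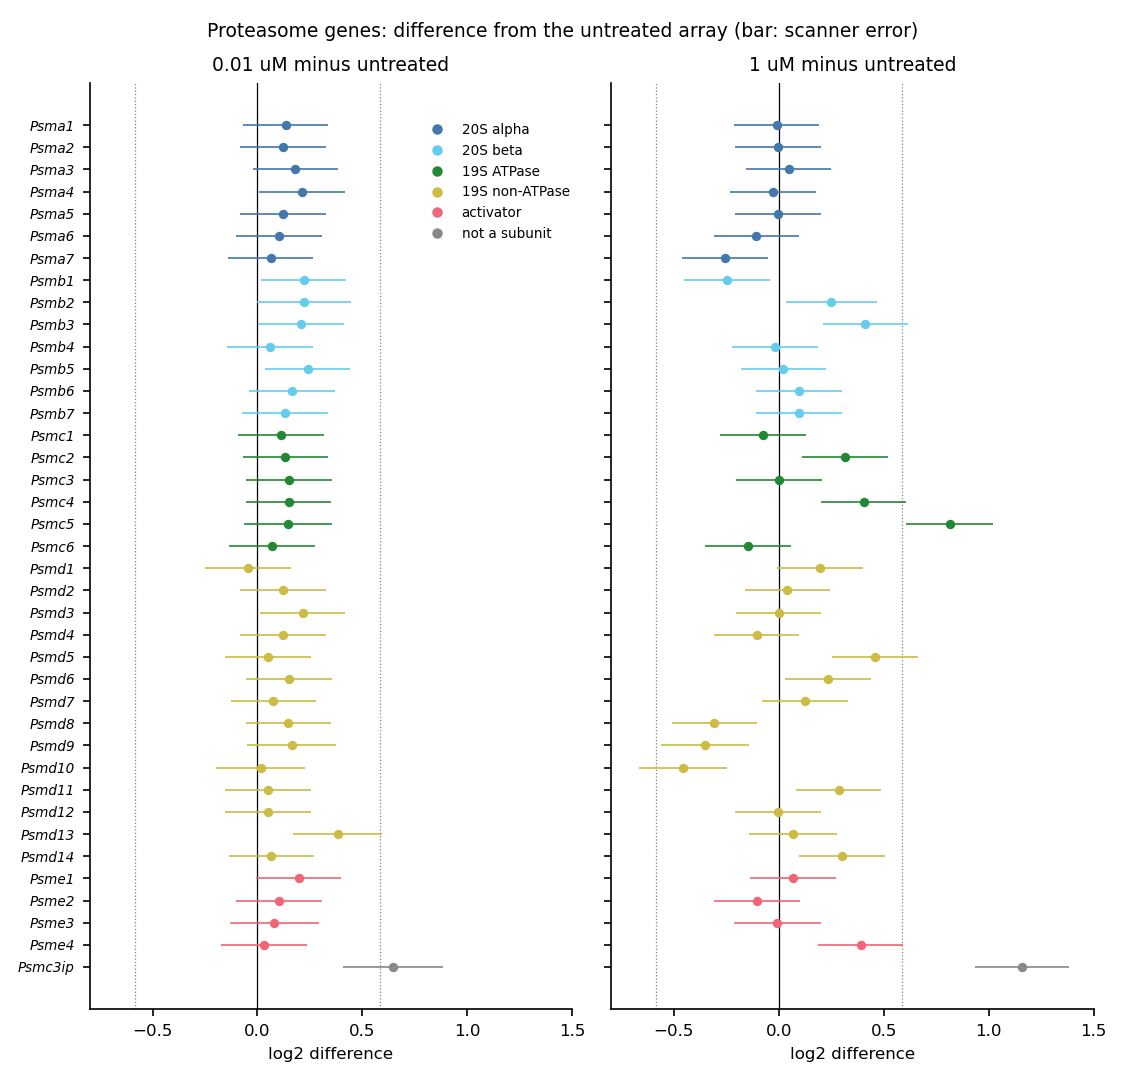
Log2 difference of each of the 39 genes from the untreated array, at 0.01 uM (left) and 1 uM (right) Cr(VI). Points are single-array differences coloured by subcomplex, bars are the scanner error-model SE and dotted lines mark 1.5-fold. Of the subunit genes, Psmc5 alone (0.81) passes the line, on the right; the grey point, Psmc3ip, is no subunit and passes it on both sides.

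The spread of the members was narrow in each comparison. Over the 38 subunit and activator genes the SD of the differences at 1 uM was 0.25, against 0.61 over the 11154 genes well above background on both arrays. Bright probes vary less than dim ones, and among the 3211 genes at least as bright as the lower quartile of the 38 the SD was 0.49. Within 0.25 of 0 were 65.8% of the 38 genes, 40.2% of all those genes and 46.4% of the bright ones. At 0.01 uM the SD was 0.077 for the 38 genes, 0.20 for all genes above background on both arrays and 0.13 for the bright ones. The bright genes also read higher as a whole at 0.01 uM: 80.6% of them were above 0, with a median of 0.10. At 1 uM they read lower as a whole, with 35.8% above 0 and a median of -0.13, against 50% and 0.01 for the 38 genes. Between the doses 28.3% of the bright genes were above 0, with a median of -0.23. Between 1 uM and 0.01 uM the SDs were 0.26, 0.65 and 0.54 in the same order. These are descriptions of 3 arrays, and members of a complex chosen by name are not replicates of a condition.

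**Figure D2:**
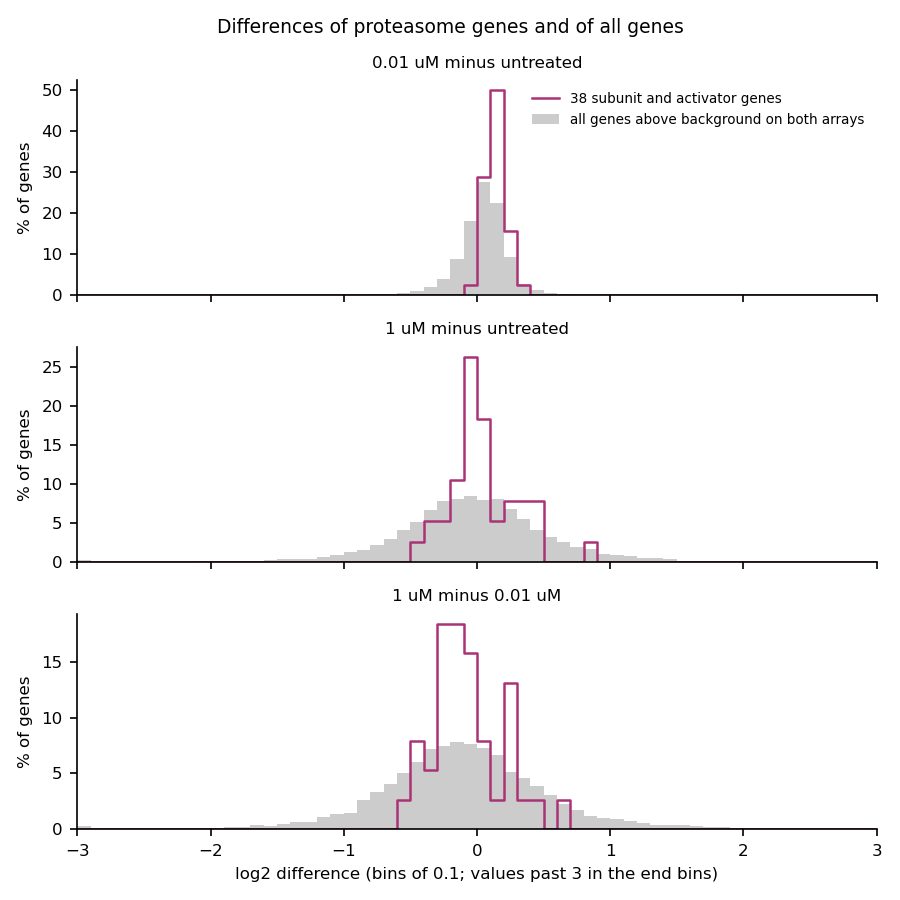
Share of genes (percent) in bins of 0.1 of the log2 difference, for the 38 subunit and activator genes (line) and all genes well above background on both arrays (grey), in each comparison. The line is narrower than the grey area in all 3 panels, with SDs of 0.077 against 0.20, 0.25 against 0.61 and 0.26 against 0.65 from top to bottom.

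Among the 20S alpha genes, which form the outer rings and gate of the core, 7 of 8 were measured. None was past 0.32 from the untreated array at either dose. Of all genes, 25.3% were past 0.32 higher and 26.9% lower at 1 uM, and 8.66% and 4.49% at 0.01 uM. The median difference of the alpha genes was -0.01 at 1 uM and 0.12 at 0.01 uM. Psma7 had the largest difference at 1 uM. Its log2 signals were 5.38, 5.44 and 5.12, a difference of -0.26 ± 0.20 (SE, 1 array each) at 1 uM and 0.06 at 0.01 uM. The 1 uM array was the lowest for this gene, by little more than the scanner error. Psma4 had the largest difference of the alpha genes at 0.01 uM, with log2 signals of 2.53, 2.74 and 2.50. Psma3, the alpha gene with the highest difference at 1 uM, gave 2.87, 3.05 and 2.92. The other 4 genes (Psma1, Psma2, Psma5 and Psma6) lay between -0.11 and -0.004 at 1 uM and between 0.10 and 0.13 at 0.01 uM. On this scaling all 7 read highest on the 0.01 uM array.

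The 20S beta genes include the catalytic subunits. Psmb6 encodes the caspase-like site, Psmb7 the trypsin-like site and Psmb5 the chymotrypsin-like site, the target of the drug bortezomib. Psmb6 gave log2 signals of 4.46, 4.62 and 4.55, Psmb7 gave 2.73, 2.86 and 2.83, and Psmb5 gave 3.13, 3.37 and 3.16. At 1 uM these are differences of 0.10, 0.10 and 0.02, each with an SE of 0.20, so none of the 3 catalytic genes stood apart from the untreated array. At 0.01 uM the differences were 0.17, 0.13 and 0.24, the last being the highest beta difference at that dose.

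The structural beta genes were less even at 1 uM. Psmb3 gave log2 signals of 5.49, 5.70 and 5.90, a difference of 0.41 ± 0.20 at 1 uM (1.33-fold), and its second probe gave 0.35. Psmb1 gave 5.06, 5.28 and 4.81, a difference of -0.25 at 1 uM and of -0.47 between 1 uM and 0.01 uM. Psmb3 and Psmb1 thus gave the highest and the lowest beta difference at 1 uM, on either side of the catalytic genes. Psmb2 gave -0.34, -0.11 and -0.09, and Psmb4 gave 4.999, 5.06 and 4.98. Over the 14 measured core genes the median was -0.004 at 1 uM, 0.15 at 0.01 uM and -0.13 between the doses. In each comparison 0 of 14 were 1.5-fold apart. Of all genes, 14.1% were 1.5-fold higher and 13.6% lower at 1 uM, and 2.74% and 1.15% at 0.01 uM. Between the doses 12.5% were higher and 17.9% lower.

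The inducible counterparts of the catalytic genes, which replace them in the immunoproteasome, gave larger differences at 1 uM where measured. Psmb9, which replaces Psmb6, read 1.09, 1.12 and 1.55 (0.46 at 1 uM), Psmb10, which replaces Psmb7, read 1.76, 1.99 and 2.33 (0.57 at 1 uM), and Psmb8 was not well above background. The difference of Psmb9 exceeded that of Psmb6 by 0.36 ± 0.29, and that of Psmb10 exceeded that of Psmb7 by 0.48 ± 0.29, within 2 times the scanner error in both cases.

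The 6 ATPase genes of the 19S base, Psmc1 to Psmc6, encode the hexameric ring that unfolds substrates, and Psmc5 had the largest difference of the 6 at 1 uM. Psmc5 encodes the subunit RPT6. Its log2 signals were 1.18, 1.32 and 1.99, so the 1 uM array was high and the other 2 close together. The difference was 0.81 ± 0.21 at 1 uM (1.76-fold), 0.14 at 0.01 uM and 0.67 between the doses (1.59-fold). The second Psmc5 probe, elsewhere in the gene, read 0.76, 0.90 and 1.51, which gives 0.75 at 1 uM, 0.14 at 0.01 uM and 0.61 between the doses. Both probes were thus at least 1.5-fold higher at 1 uM than on either other array. Over the alternatives tried, the Psmc5 difference from untreated was between 0.78 and 1.496, the latter with the spike-in controls. Measured within the array, the Psmc5 difference exceeded the median of the other 5 ATPase genes by 0.81, and by 0.78 to 0.81 under the alternatives tried. Psmc5 was picked as the largest of the 6 at 1 uM, so it was bound to exceed that median there. Many of the alternatives, such as a single constant per array, cannot change this gap, so its narrow range is no check. Between the doses the gap was 0.62 to 0.82. At 0.01 uM the Psmc5 difference exceeded that median by 0.01. The median leaves out the nearest gene, Psmc4, at 0.40 ± 0.20 at 1 uM. With the mean of probes the highest of the other 5 read 0.56, against 0.78 for Psmc5. The distance of Psmc5 from its nearest gene was not set against the scanner error, so Psmc5 is not shown to stand apart from Psmc4.

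The other ATPase genes spread on both sides of 0 at 1 uM. Psmc4 gave 2.98, 3.13 and 3.39, a difference of 0.40 ± 0.20, with 0.31 from its second probe. Psmc2 gave 4.50, 4.64 and 4.82, a difference of 0.31. Psmc1 gave 4.37, 4.48 and 4.29, and Psmc3 gave 2.61, 2.76 and 2.61, both within the scanner error of 0. Psmc6 gave 5.47, 5.54 and 5.32, a difference of -0.15 at 1 uM and the lowest of the ring. Its second probe, annotated to the cDNA BC043044, read 1.12, 1.248 and 0.51, a difference of -0.61, in the same direction and 0.47 further from 0. The ring therefore ran from -0.15 to 0.81 at 1 uM, with a median of 0.16, while at 0.01 uM its 6 genes lay between 0.07 and 0.15.

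**Figure D3:**
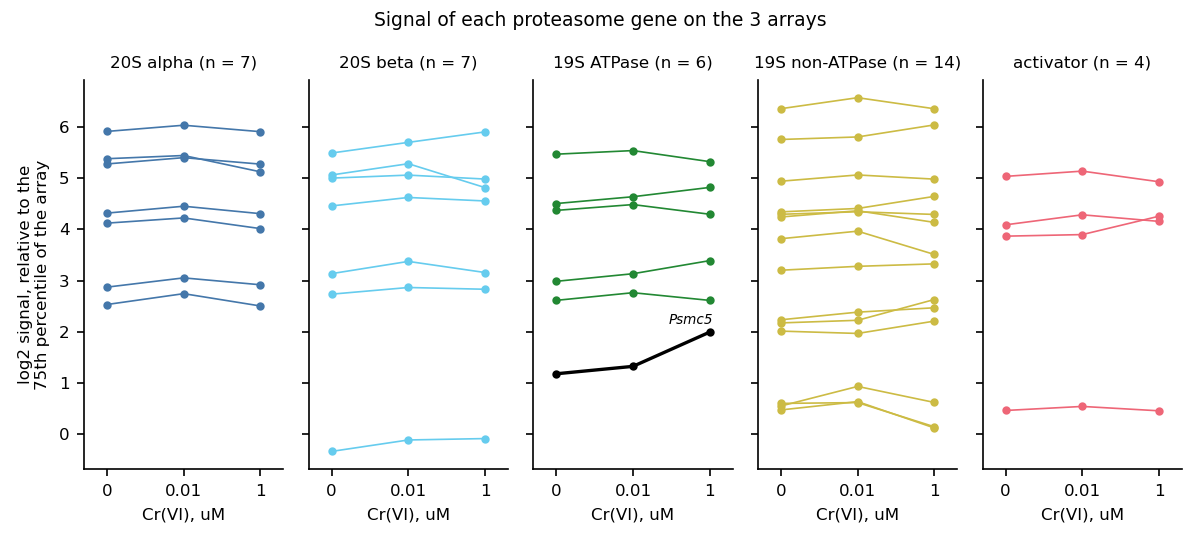
Log2 signal relative to the array's 75th percentile (vertical axis) for each gene on the untreated (0), 0.01 uM and 1 uM arrays, 1 line per gene and 1 panel per subcomplex; doses are evenly spaced and not to scale. Lines compare 1 probe across arrays and their heights are not comparable between genes. Most lines are nearly flat, with a small peak at 0.01 uM on this scaling; the black line is Psmc5, which goes from 1.18 and 1.32 to 1.99.

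The non-ATPase genes of the 19S cap comprise lid subunits, base subunits and the chaperones that assemble the base. The lid, which carries the deubiquitinase, had a median of 0.10 over 8 genes at 1 uM. Psmd14, the zinc-dependent deubiquitinase that cuts the chain off the substrate, gave 4.34, 4.41 and 4.64, a difference of 0.30 ± 0.20, with 0.05 from its second probe. Psmd8 was the lowest lid gene at 1 uM, with 3.82, 3.96 and 3.51 and a difference of -0.31. Psmd11, known for raising proteasome activity in stem cells, gave 5.75, 5.80 and 6.04, a difference of 0.28. Psmd3 gave 6.35, 6.57 and 6.35, but its spot was saturated on the 1 uM array, so that last value is a lower bound.

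Psmd13, a lid subunit, had the largest difference of the subunit genes at 0.01 uM. Its log2 signals were 0.55, 0.93 and 0.62, a difference of 0.38 at 0.01 uM (1.30-fold) and of 0.07 at 1 uM. It was the 1 subunit gene past 0.32 on the 0.01 uM array, and the 1 uM array was again near the untreated one. The remaining lid genes, Psmd6, Psmd7 and Psmd12, had differences of 0.23, 0.12 and -0.003 at 1 uM.

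Among the base subunits, Psmd4 (RPN10) is a receptor for ubiquitin chains. Its RefSeq probe gave 4.24, 4.36 and 4.13, a difference of -0.11 at 1 uM, while the probe annotated to the cDNA AB029144 gave -2.32, -1.92 and -1.03, a difference of 1.29 ± 0.29. The 2 Psmd4 probes thus disagreed in direction at 1 uM, the second being a dim spot. The scaffold genes Psmd1 (RPN2) and Psmd2 (RPN1) gave 2.01, 1.97 and 2.21, and 4.94, 5.06 and 4.98. Psmd1 was the 1 member with its lowest reading at 0.01 uM.

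The assembly chaperones of the base differed in direction at 1 uM. Psmd5, also called S5b, gave 2.17, 2.22 and 2.63, a difference of 0.46 ± 0.20. Psmd10 (gankyrin) gave 0.60, 0.62 and 0.15, a difference of -0.46 ± 0.21. Psmd9 (p27) gave 0.47, 0.64 and 0.12, a difference of -0.35, with -0.58 from its second probe. The Psmd5 and Psmd10 differences were 0.91 ± 0.29 apart at 1 uM, over 2 times the scanner error, and 0.04 apart at 0.01 uM. This pair holds the highest and the lowest of the 14 non-ATPase genes at 1 uM, so it was bound to lie far apart there. Psmd9 was the lowest member between the doses, at -0.51. Over all 20 cap genes the median was 0.05 at 1 uM, 0.12 at 0.01 uM and -0.07 between the doses. Psmc5 was the 1 cap gene past 1.5-fold, higher at 1 uM and between the doses. Of all genes, 14.1% were 1.5-fold higher and 13.6% lower at 1 uM. Between the doses 12.5% were higher and 17.9% lower.

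Of the activators, Psme1 and Psme2 encode the PA28 alpha and beta chains, which form a mixed ring, Psme3 the nuclear PA28 gamma and Psme4 the PA200 protein. Psme1 gave 4.09, 4.28 and 4.15, and Psme2 gave 5.03, 5.14 and 4.93. Their differences at 1 uM were 0.07 and -0.11, which lie within the scanner error of 0 and of each other. The Psme1 and Psme2 probes lie 6.08 kb apart on chromosome 14, at chr14:56200194-56200253 and chr14:56206335-56206394. Psme3 gave 0.46, 0.54 and 0.46, with no difference beyond the error on any array. Psme4 gave 3.87, 3.90 and 4.26, a difference of 0.39 ± 0.20 at 1 uM and 0.03 at 0.01 uM, and a second probe read 0.17, 0.11 and 0.75, a difference of 0.58. Both Psme4 probes above background were thus higher on the 1 uM array, and its 2 further probes were not well above background on any. The median of the 4 activator genes was 0.03 at 1 uM, 0.09 at 0.01 uM and -0.11 between the doses.

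Psmc3ip, which is no subunit, had the largest difference of all 39 genes, on 1 of its 2 probes. The brighter probe read -0.62, 0.03 and 0.54, which is 0.65 ± 0.24 at 0.01 uM (1.57-fold) and 1.16 ± 0.22 at 1 uM (2.23-fold). The other probe, at chr11:100954219-100954278 against chr11:100953730-100953864, read -0.93, -1.11 and -0.81, which is -0.19 at 0.01 uM and 0.12 at 1 uM. The readings of the first probe were each over 2 times the SE apart, and those of the second were less than 2 times the SE apart. Which of the probes reflects the transcript was not tested.

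The probes of a gene gave a check of the measurement within the arrays. Of the 14 members with more than 1 probe above background, the median gap between the highest and the lowest probe at 1 uM was 0.21, the same as the 0.21 over 3219 such genes on the array. A gap of at least 1.5-fold was found in 2 of the 14, Psmc3ip and Psmd4, against 15.1% of all such genes. At 0.01 uM 1 member had such a gap, Psmc3ip, against 4.13%, and between the doses 3 had one, Psmd4, Psmd7 and Psmd12, against 17.9%. Psmd7 carried 3 such probes: the 2 on the RefSeq transcript gave 0.12 and -0.001 at 1 uM, and the one annotated to the cDNA AK158379 read -0.48, -0.92 and -0.03, a difference of 0.45. The brightest Psmd7 probe read 3.20, 3.28 and 3.33. The brightest Psmd12 probe read 4.29, 4.34 and 4.29, a difference of -0.003 at 1 uM, and the 2 dimmer ones gave 0.34 and -0.21.

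**Figure D4:**
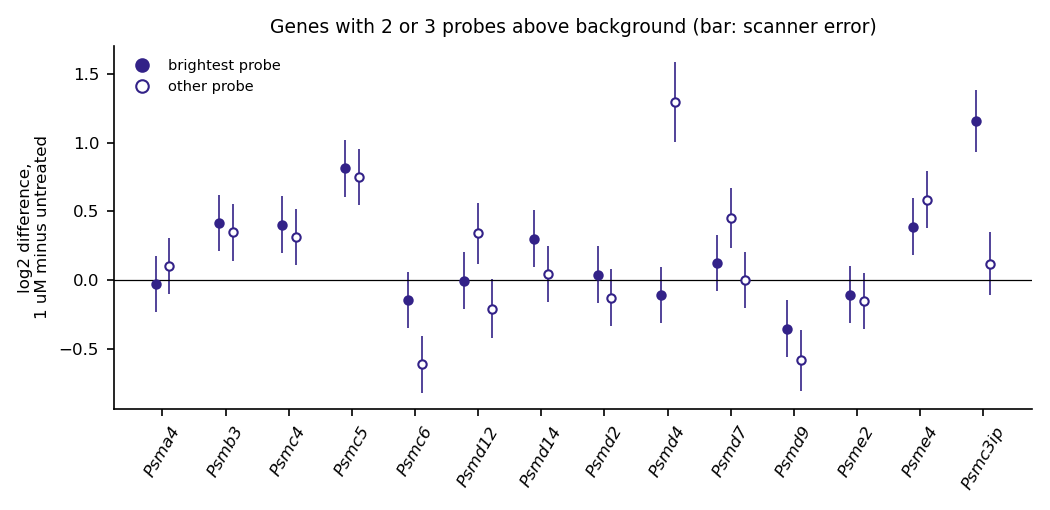
Log2 difference between 1 uM and untreated for each probe of the 14 genes with more than 1 probe well above background; filled points are the brightest probe of a gene, open points its other probes, bars the scanner error-model SE. The Psmc5 probes lie together at 0.81 and 0.75, while those of Psmd4 and Psmc3ip lie at least 1.5-fold apart.

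Genes that act with the proteasome, taken from lists by function, were compared in the same way. Their counts past 1.5-fold at 1 uM stand against 14.1% of all genes higher and 13.6% lower, and lists this short cannot be told from those shares. Of 7 assembly factors and inhibitors listed, 6 were compared, with a median of -0.01 at 1 uM and 0 of 6 past 1.5-fold. Pomp, the maturation factor of the core, gave 5.77, 5.94 and 5.84, and the chaperone gene Psmg1 gave 1.16, 1.18 and 0.83. Of the other cap subunits and bound enzymes, 5 were compared at 1 uM, with a median of 0.25 and 0 of 5 past 1.5-fold. The deubiquitinase genes Usp14 and Uchl5 had differences of 0.28 and 0.29. The 8 genes of the CCT chaperonin, another abundant cytosolic complex, had a median of 0.10 and an SD of 0.21 at 1 uM, with 0 of 8 past 1.5-fold. The CCT genes thus gave a median and a spread near those of the proteasome genes.

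The genes for transcription factors that regulate the proteasome were mixed. Nfe2l1, encoding NRF1, gave 5.51, 5.51 and 5.44, and Nfe2l2, encoding NRF2, gave 4.77, 4.76 and 5.07. The small Maf genes Maff and Mafk, whose products pair with both, read at least 1.5-fold lower at 1 uM: Maff gave 5.36, 5.47 and 4.47, and Mafk gave 0.55, 0.75 and -0.31. Mafg, the third, gave 2.40, 2.50 and 2.83. In all, 2 of 7 regulators were 1.5-fold lower and 0 higher at 1 uM, against 13.6% and 14.1% of all genes.

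Upstream of the proteasome, Rps27a, which encodes ubiquitin fused to a ribosomal protein, gave 5.92, 6.12 and 5.40. The ubiquitin-activating enzyme gene Uba1 gave 2.53, 2.66 and 2.60, and Uba6 gave 0.09, -0.23 and 0.56. Between 1 uM and 0.01 uM, Uba6 was thus 0.79 higher and Rps27a 0.72 lower (-0.72). Of the shuttle receptors and the p97 unfoldase, 9 were compared, with a median of -0.02 at 1 uM and 0 past 1.5-fold, and Vcp, which encodes p97, gave 4.78, 4.92 and 4.78. At 0.01 uM no gene of these lists that could be compared was 1.5-fold apart from the untreated array. Of all genes, only 2.74% were that much higher and 1.15% lower, so lists this short cannot be told from those shares.

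Promoters were compared by sequence, since proteasome genes are known to share control elements. RefSeq promoter windows on GRCm38.p6, of 250 bases before and 50 after a start, matched 33 of the 40 subunit and activator genes in 36 windows. The motif TGACNNNGC, the core of the antioxidant response element bound by NRF1 and NRF2, was found on either strand in 6 windows (16.7%), against 12.4% of all 32851 windows. CCAAT, the motif of NF-Y, was in 13 (36.1%), against 37.4%. CCGGAAG, an ETS-factor motif, was in 13 windows of 12 genes (36.1%), against 8.86%. No match of one motif overlapped a match of another. The median difference at 1 uM was 0.02 over the 12 genes with CCGGAAG and 0.01 over the 20 measured genes without it. With and without CCAAT the medians were -0.01 and 0.05, and with and without TGACNNNGC 0.01 and 0.02. Any bearing of a motif on the values was not tested.

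The bases before the start are shown for Psmc5, the ATPase gene with the highest difference at 1 uM, and Psmc6, the one with the lowest, with motif matches in capitals. The Psmc5 stretch, at chr11:106255935-106256184 on the plus strand of GRCm38.p6, holds none of the 3 motifs. The Psmc6 stretch, at chr14:45329574-45329823 on the plus strand, holds 1 match to TGACNNNGC on the other strand and 1 to CCGGAAG. A match is a run of letters and not a shown site of binding.
Psmc5: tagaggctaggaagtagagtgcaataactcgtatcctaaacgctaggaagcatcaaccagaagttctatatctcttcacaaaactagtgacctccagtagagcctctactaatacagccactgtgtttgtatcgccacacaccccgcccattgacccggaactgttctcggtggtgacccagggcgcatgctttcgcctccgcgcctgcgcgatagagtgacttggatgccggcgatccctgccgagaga
Psmc6: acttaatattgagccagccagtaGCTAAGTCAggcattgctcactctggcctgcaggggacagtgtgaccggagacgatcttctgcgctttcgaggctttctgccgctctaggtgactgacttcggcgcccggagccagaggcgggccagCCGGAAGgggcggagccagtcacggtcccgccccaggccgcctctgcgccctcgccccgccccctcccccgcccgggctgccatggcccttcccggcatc

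The level of the medians depended on the scaling. With the spike-in controls the median at 0.01 uM was 0.35 over all genes and 0.43 over the proteasome genes. At 1 uM the members' median minus that of all genes was 0.06 in the main setting, 0.17 with quantile normalization, 0.16 with loess scaling and -0.11 with no filter on dim probes. Scaling by a single constant per array cannot change this gap.

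**Figure D5:**
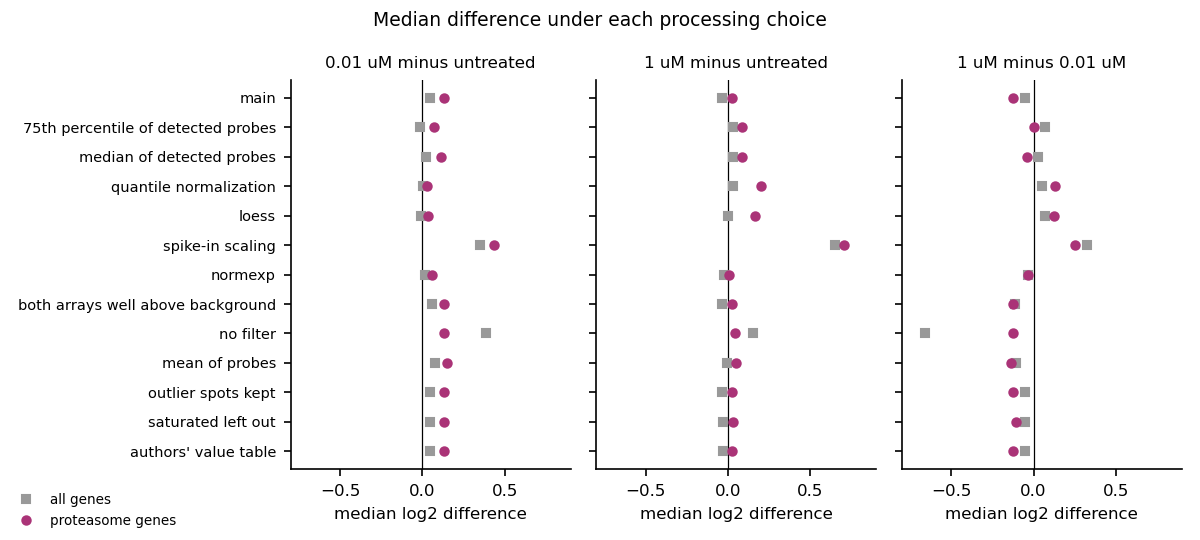
Median log2 difference of the 39 proteasome genes (circles) and of all genes compared (squares) in each comparison, under the main setting (top) and the 12 alternatives. Spike-in scaling raises both at 1 uM, to 0.70 and 0.65; quantile and loess scaling raise mainly the circles there, to 0.20 and 0.16, and removing the filter on dim probes moves mainly the squares.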

How the data were processed

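Cy3-labelled RNA of 3 samples was hybridised to 3 arrays of 1 slide, scanned together, so no batch could be separated from the groups. The intensity of each spot is the authors' output of Feature Extraction 10.5.1.1, a one-colour scan, per the file headers. The deposited series table holds log2 values; set against the scanner values, each column differed from log2 processed signal by 1 constant (9.45, 9.01 and 9.56), within 0.01 for nearly all probes, so it shares the scaling used here, and its column medians were -4.23, -3.96 and -4.03. Probe coordinates follow the array files (mm9). The RefSeq table (GRCm38.p6) was used for names and promoters.

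From the scanner files, control spots and spots marked as outliers were left out, spots of a probe were averaged as log2 processed signal, and the 75th percentile of all probes on an array was taken off. A gene was its brightest probe over the 3 arrays, compared where 1 or both arrays had it well above background; genes saturated on both were left out. With 1 array per group no test was made: differences, counts past log2 differences of 0.32, 0.58 (1.5-fold) and 1 (2-fold), and medians are set beside those of all genes. Precision is limited by the number of arrays. Genes given in full were those 1.5-fold apart, the extremes of each subcomplex, catalytic, activator, receptor, deubiquitinase and tissue-restricted genes, and genes whose probes disagreed by 1.5-fold; others named lie outside that rule. The members and lists were chosen with earlier results of these data known. Alternatives were other scalings (percentile or median of detected probes, quantile, loess with span 0.4, spike-in controls), normexp background correction (offset 50), filters, probe averaging, outlier and saturated spots, the deposited table and thresholds. Tools were limma 3.58.1 (R 4.3.3) for normexp, statsmodels 0.14.6 for loess, and pandas 2.3.3 and numpy 2.4.6 under Python 3.11.15 for the rest, and the counting was tested on simulated data. Some genes of the ubiquitin list are not reported here.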

Additional observations from a re-analysis of the deposited data

How the results depend on the processing

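No paired analysis was possible because each group has 1 array. Over the medians and counts of the 3 comparisons, 225 values under an alternative stayed within the scanner error (medians) or 1.5 times (counts) of the main value. That error, about 0.20, is of a single gene's difference and not of a median, so the 225 are no measure of stability. The members' median at 1 uM, 0.02 in the main setting and 0.20 with quantile normalization, was counted among them. The other 39 values moved, and all 39 follow. Among these 39, every moved median between the doses changed from negative to positive, as did the 20S core median at 1 uM. Both gaps to all genes with no filter changed sign. Some medians not counted as moved changed sign too. At 1 uM the 20S core median was -0.004 in the main setting, 0.17 with quantile normalization, 0.14 with loess and -0.02 with normexp. Between the doses it was -0.13, 0.07, 0.06 and -0.07 in the same order.

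Spike-in scaling at 1 uM against untreated gave a median of 0.70 and 30 of 39 genes 1.5-fold higher, against 56.0% of all genes. The subcomplex medians were 0.68 (20S core), 0.74 (19S cap) and 0.71 (activators). At 0.01 uM spike-in scaling gave a median of 0.43 and 2 of 39 genes 1.5-fold higher, against 10.46% of all genes. The subcomplex medians there were 0.45, 0.42 and 0.39 in the same order. Between the doses it gave a median of 0.25 and 8 of 39 genes higher, against 28.51% of all genes. The subcomplex medians were then 0.25, 0.31 and 0.27. Quantile normalization between the doses gave a median of 0.13 (cap 0.22, activators 0.11) and 4 genes higher (14.2% of all genes). Loess gave 0.12 (cap 0.20, activators 0.10) and 2 genes higher (14.7% of all genes). The 75th percentile and the median of detected probes each gave 2 genes higher there, against 16.7% and 15.2% of all genes. At 0.01 uM the count higher was 0 with normexp, 0 with the mean of probes and 3 with no filter. The shares of all genes there were 0.45%, 3.12% and 47.7%. No filter also gave 2 genes lower between the doses, against 53.4% of all genes. It set the members' median -0.25 from that of all genes at 0.01 uM and 0.53 between the doses, where it lets dim probes in.

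At log2 thresholds of 0.32 and 1 (2-fold), the genes higher at 1 uM were 6 and 1, at 0.01 uM 2 and 0, and between the doses 4 and 0; past 0.32, 2 were lower at 1 uM and 4 between the doses. The shares of all genes at these thresholds stand with each comparison above. Psmc3ip fell to 0.64 at 1 uM and 0.23 at 0.01 uM with the mean of its probes. Beyond what the settings are built to change, the cause was not tested. Beyond 1 scanner error (about 0.20) lay 16 of 39 members at 1 uM, 7 at 0.01 uM and 22 between the doses. Over all genes compared these counts were 8170 of 12277, 2304 of 11738 and 8230 of 11903, in the same order. Saturated on 1 array was 1 member probe (Psmd3 at 1 uM).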
